A study of Ceratotherium simum with 9 samples.

Results

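The miRNAs described here are the entries of 7 miRNA families that are tied, mostly by work in mouse granulosa cells, to the LH response and to steroid output of the follicle. They are miR-21, miR-132, miR-212, miR-202, miR-224, miR-383 and miR-320. Members had to carry one of these names, with an optional letter and arm, and to exceed 10 CPM in at least 2 of the 3 libraries of at least 1 follicle stage. CPM are reads scaled by the size of the library, which the authors adjusted by TMM, so the members were chosen by their deposited levels and those levels are a description. Of 3886 miRNA names in the table, 24 fitted by name and 14 of these passed, out of 417 miRNAs that passed in the whole series. The 14 comprised 4 equine (eca), 5 bovine (bta) and 5 human (hsa) entries.

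Follicular fluid was aspirated from follicles of 2 southern white rhinoceros females, staged by diameter as growing (G; 11 to 17 mm), dominant (D; 18 to 29 mm) or pre-ovulatory (P; 30 to 34 mm). No age was given. Both females had received the progestin chlormadinone acetate and then the GnRH analog deslorelin, so all stages share a stimulated cycle, and follicles were flushed with a solution containing heparin. Extracellular vesicles (EVs), the membrane-bound particles that cells release, were isolated from the fluid, and each stage had 3 small-RNA libraries (n = 3) whose RNA came from EVs pooled over the 2 animals. Nothing separates the animals, so the p-values rest on how far these libraries lie apart and carry no spread between animals. The methods call the pooled EV isolations technical replicates, and in another place speak of biological replicates of each group.

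A miRNA guides a silencing complex to messages that pair with its seed, and a single miRNA gene yields a guide strand and a less stable passenger strand from the opposite arm of its hairpin. In the follicle, LH acts through cAMP on granulosa cells that have acquired its receptor, halts their proliferation and switches them from estradiol to progesterone synthesis. In mouse granulosa cells LH or cAMP induces miR-21, which protects these cells from apoptosis, and the clustered pair miR-132 and miR-212. The gonads are the main site of miR-202. miR-224 responds to TGF-beta and raises estradiol release in mouse granulosa cells, miR-383 also favors estradiol release there, and miR-320 restrains it through the steroidogenic transcription factor SF-1. Whether fluid EVs hold more of a miRNA because more cells release it or because each cell releases more of it cannot be told apart in these pooled samples.

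Recovered miRNA reads numbered 18384 to 149281 per library (median 38258), and 1 read was worth 5.64 to 38.6 CPM. In 8 libraries 1 read therefore exceeded the 10 CPM threshold. Single miRNAs filled large parts of a pair of libraries, eca-miR-148a 71.8% of D2 and bta-miR-11980 34.97% of G1. Over the tested miRNAs, libraries of a stage correlated at r = 0.708 to 0.793 (G), 0.821 to 0.824 (D) and 0.804 to 0.851 (P), a description since miRNAs are no replicates. The miRNAs of red blood cells (5 names, none at 0 reads, miR-451 and miR-486) summed to 37581 to 159300 CPM in G, 82089 to 214200 in D and 33470 to 57460 in P. Those of leukocytes (12 names, 2 at 0 reads: bta-miR-142-3p and hsa-miR-155-3p) summed to 1448 to 3682 CPM in G, 3699 to 9433 in D and 766 to 1198 in P. The liver miRNA miR-122 (2 names, hsa-miR-122-3p at 0 reads) gave 7309 to 20244, 20499 to 43082 and 12213 to 17796 CPM. All 3 lists were higher in every D than in every P library.

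The 14 entries spanned a range from miR-21, among the most abundant miRNAs of the EVs, to miRNAs seen in a handful of reads. They held 24386 reads in all, and the 3 miR-21 entries made up 84.7% of these. Together the 14 took 1.59% (D2) to 9.51% (D3) of the miRNA reads of a library. Only 5 members had reads in all 9 libraries, and 9 members had fewer than 100 reads summed over them. For 10 members the threshold was passed in all 3 stages, and these were compared between stages. The other 4 passed in only 2 stages. Since passing the threshold in a stage already sets those stages apart, their values are given with no test.

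**Figure D1:**
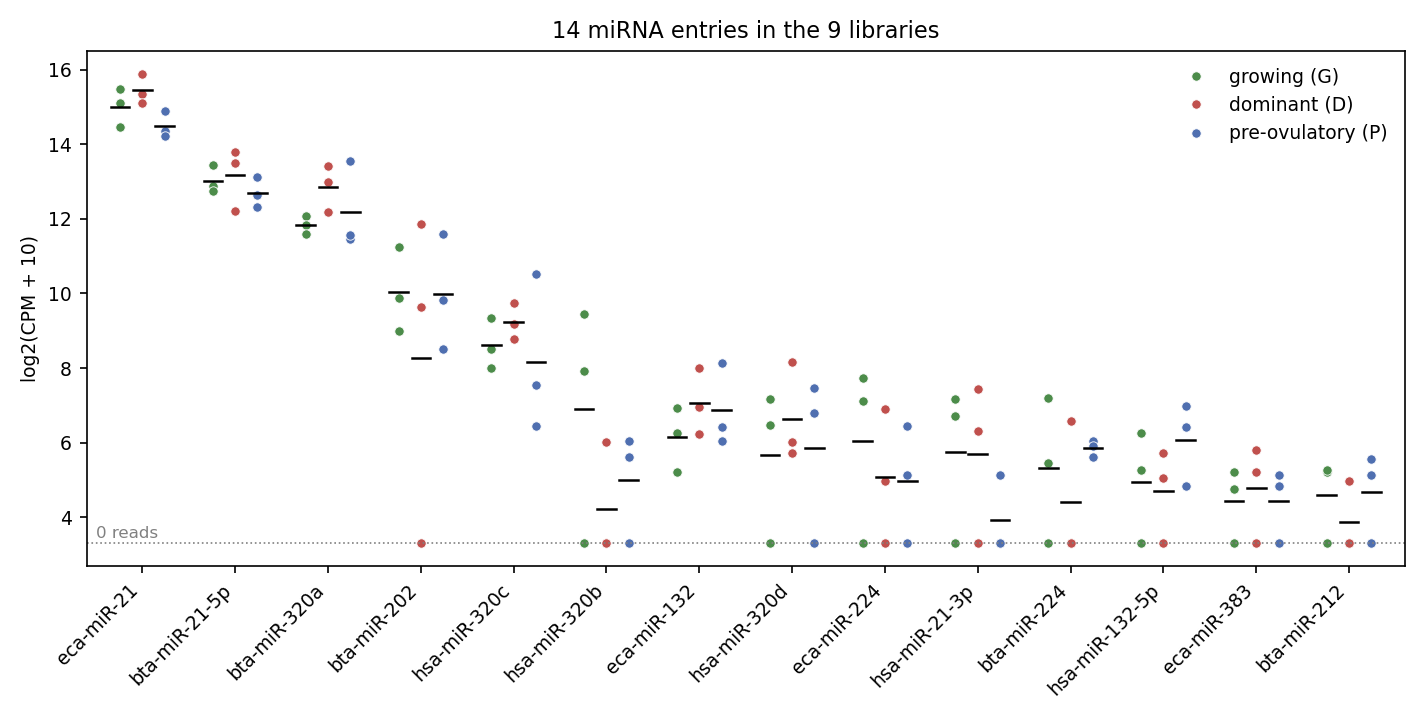
Abundance of the 14 entries as log2(CPM + 10), with 1 point per library colored by stage and a black bar for the mean of the 3 libraries on this scale. The dotted line marks 0 reads. The eca-miR-21 points lie highest, the bta-miR-202 point of D2 lies on the line of 0 reads, and below hsa-miR-320c most entries have libraries on that line.

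Ordered by mean CPM over the 9 libraries, eca-miR-21 (34414) led bta-miR-21-5p (8451), followed by bta-miR-320a (5812), bta-miR-202 (1408) and hsa-miR-320c (533). The first of these exceeded the next in 9 of 9 libraries and bta-miR-320a exceeded bta-miR-202 in 9 of 9. By contrast bta-miR-21-5p was above bta-miR-320a in 7 of 9 libraries, and bta-miR-202 above hsa-miR-320c in 7 of 9. Below these, neighbors in the order such as eca-miR-132 (114.9) and hsa-miR-320d (95.02) were not separated, with the former higher in 5 of 9 libraries. These are read abundances, and how well each sequence is ligated during library preparation was not tested.

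eca-miR-21 was the main miR-21 entry at every stage. It had 22539, 45222 and 34934 CPM in G1, G2 and G3, 41641, 35004 and 60096 CPM in D1, D2 and D3, and 20947, 30416 and 18929 CPM in P1, P2 and P3. All D libraries were above all P libraries, while G overlapped both. Means were 34232 ± 11358 in G, 45580.3 ± 13001.5 in D and 23431 ± 6133 in P (mean ± SD, n = 3). A positive log2 fold change, on the log2(CPM + 10) scale throughout, means higher in the stage named first. In P vs. D it was -0.95 (standard error 0.45, 95% interval -1.91 to 0.0060, limma adjusted p = 0.316), so this difference did not pass the threshold. Its size rests on the scaling, because when each library was scaled to its own total of miRNA reads the log2 fold change was -0.12, while the median miRNA moved by 0.55 in P vs. D under that scaling. As a share of miRNA reads eca-miR-21 ran from 1.08% in D2, where eca-miR-148a is dominant, to 6.84% in D3, and it ranked between 3 and 12 in its library. The D2 share was below those of P1, P2 and P3 (2.37, 4.28 and 2.68%), so the separation of D from P did not hold for shares.

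The comparisons with G were smaller than the spread between replicates. For eca-miR-21 the G vs. D log2 fold change was -0.43 (95% interval -1.39 to 0.53, limma adjusted p = 0.712) and that of P vs. G -0.52 (-1.48 to 0.44, adjusted p = 0.770). In CPM the red-cell, leukocyte and liver sums given above were also higher in each D than in each P library. Their part in the lower eca-miR-21 values of P was not tested.

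**Figure D2:**
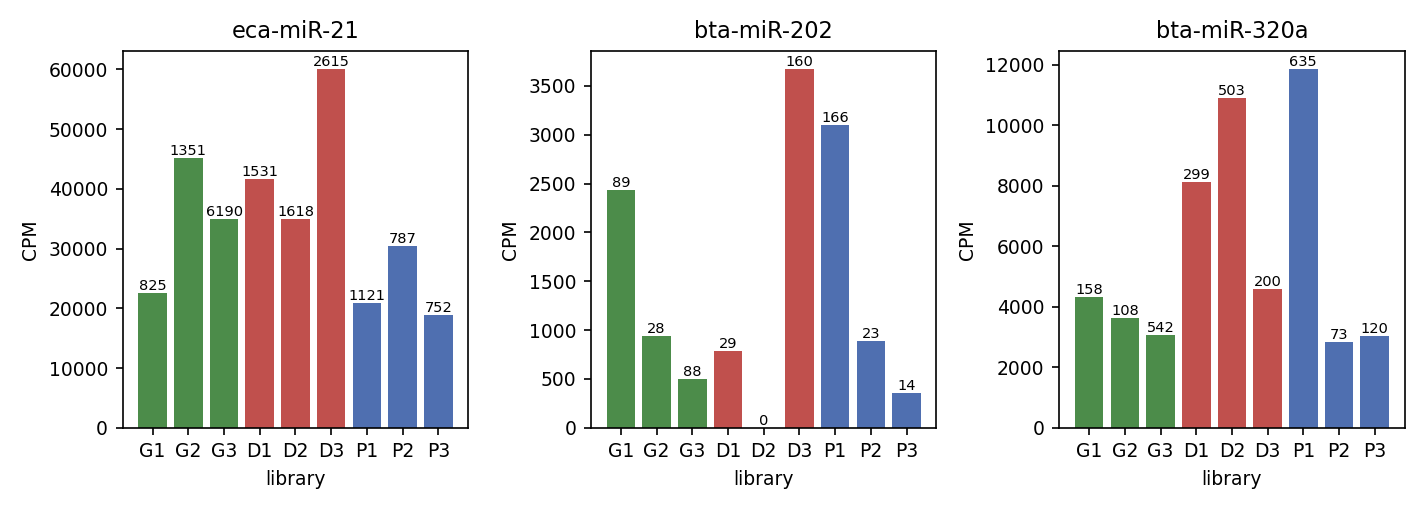
CPM of eca-miR-21, bta-miR-202 and bta-miR-320a in each library, colored by stage (green G, red D, blue P), with the recovered reads written above each bar. eca-miR-21 is at 35004 CPM or more in every D library and at 30416 CPM or less in every P library, bta-miR-202 is highest in D3 and P1 and has 0 reads in D2, and bta-miR-320a is highest in P1 and D2.

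The bovine name of the miR-21 guide, bta-miR-21-5p, followed with 7567, 11080 and 6846 CPM in G, 11451, 4738 and 14111 CPM in D and 6353, 8850 and 5059 CPM in P, in the order of the replicate numbers. The 3 stages overlapped, since D2 had the lowest value of all libraries and D3 the highest. Means were 8498 ± 2265, 10100 ± 4830 and 6754 ± 1927 CPM (mean ± SD, n = 3). The P vs. D log2 fold change of bta-miR-21-5p came to -0.48 (standard error 0.56, 95% interval -1.68 to 0.73, limma adjusted p = 0.707), with -0.14 for G vs. D (adjusted p = 0.947) and -0.34 for P vs. G (adjusted p = 0.905). Scaled to the total of miRNA reads, the P vs. D value was 0.35.

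The species names divide reads of the same guide, so the share given to bta-miR-21-5p is a measure of how reads fell between the 2 reference names that does not depend on depth or scaling. It was 25.1, 19.7 and 16.4% in the G libraries, 21.6, 11.9 and 19.0% in the D libraries and 23.3, 22.5 and 21.1% in the P libraries. D2 stood lowest, with an exact (Clopper-Pearson) 95% interval of 10.5 to 13.5% over 1837 reads, below the interval of G3, which was 15.5 to 17.2% over 7403 reads. The P libraries lay closest together, with a mean of 22.3 ± 1.11% against 20.4 ± 4.42% in G and 17.5 ± 4.998% in D (mean ± SD, n = 3). No difference between stages passed in the exact permutation test with its 280 arrangements (p = 0.375, Benjamini-Hochberg adjusted p = 0.55 over 3 read ratios, where the smallest possible p is 0.0036). Reads carry no molecular identifiers, so the intervals cover counting error only.

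The passenger arm, hsa-miR-21-3p, had 31 of 20666 miR-21 reads, or 0.150% (exact 95% interval 0.102 to 0.213%). It passed 10 CPM in the G and D stages and fell short in P. Reads numbered 0, 4 and 17 in G, 6, 0 and 3 in D and 0, 0 and 1 in P. Per 1000 guide reads this was 1.56 ± 1.35 in G, 1.33 ± 1.58 in D and 0.350 ± 0.606 in P (mean ± SD, n = 3), given as values since the entry passed in only some stages. The 1 read of P3 was worth 25.2 CPM, so the P group lies at the limit of detection.

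miR-132 and miR-212 arise from neighboring hairpins, and in mouse both are strongly induced by LH in granulosa cells. In these EVs both were scarce. eca-miR-132 had reads in all 9 libraries, at 27.3, 66.9 and 112.9 CPM in G, 244.8, 64.9 and 114.9 CPM in D and 56.1, 270.5 and 75.5 CPM in P. These values stood for 1 to 20 reads each, and the stages overlapped. The means were 69.0 ± 42.8, 141.5 ± 92.9 and 134.04 ± 118.6 CPM (mean ± SD, n = 3), with log2 fold changes of -0.92 in G vs. D (95% interval -3.39 to 1.55, limma adjusted p = 0.772), 0.72 in P vs. G (-1.75 to 3.19, adjusted p = 0.903) and -0.20 in P vs. D (-2.67 to 2.27, adjusted p = 0.9753). Intervals this wide do not set stage differences of several fold apart from none.

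Its other arm, hsa-miR-132-5p, had 0, 2 and 5 reads in G, 0, 2 and 1 in D and 1, 3 and 3 in P. It thus made up 17 of 70 miR-132 reads, 24.3% (exact 95% interval 14.8 to 36.01%), a larger part than the opposite arm of miR-21. For both arms the interval pools the reads of all libraries and carries no spread between them. The P vs. D log2 fold change of hsa-miR-132-5p was 1.38 (standard error 1.19, 95% interval -1.19 to 3.95, limma adjusted p = 0.565). bta-miR-212 had 10 reads in all, 1, 0 and 5 in G, 0, 1 and 0 in D and 2, 0 and 1 in P, and passed the threshold in G and P only. Its equine counterpart eca-miR-212, with 1 read in G3 and 2 in D2, did not pass.

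bta-miR-202, the gonadal miRNA of the set, was detected in 8 libraries, and the libraries of each stage were far apart. It had 2431, 937 and 497 CPM in G1, G2 and G3, 789, 0 and 3677 CPM in D1, D2 and D3, and 3102, 889 and 352 CPM in P1, P2 and P3. D2 had 0 of 149281 reads, of which eca-miR-148a took 71.8%, and 3 reads would be 64.9 CPM there. A read was worth 21.6 CPM in D2, 27.2 in D1 with 29 bta-miR-202 reads and 23.0 in D3 with 160. Why D2 had none was not tested. D3 and P1 had the highest values. The means were nevertheless close, at 1288 ± 1014 in G, 1489 ± 1936 in D and 1448 ± 1457 in P (mean ± SD, n = 3), with SDs of the order of the means. The P libraries alone covered a range from 14 to 166 reads.

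No comparison of bta-miR-202 held against this spread. Its G vs. D log2 fold change was 1.77 (standard error 1.67, 95% interval -1.82 to 5.37, limma adjusted p = 0.689) and 1.70 in P vs. D (1.67, -1.89 to 5.30, adjusted p = 0.630). Both values turned with D2. Without it they were -0.70 and -0.77, and with edgeR on the recovered reads they were -0.28 and -0.09. In P vs. G the value was -0.07 (adjusted p = 0.992). The human names hsa-miR-202-5p and hsa-miR-202-3p had 0 reads in every library.

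miR-224 and miR-383, both linked to estradiol release in mouse granulosa cells, were near the detection limit. eca-miR-224 had 0, 6 and 23 reads in G, 4, 1 and 0 in D and 0, 2 and 1 in P, or 110.2 ± 102 CPM, 43.5 ± 57.6 CPM and 34.2 ± 39.4 CPM (mean ± SD, n = 3). Each stage had a library without a read, and the log2 fold change of 0.99 in G vs. D had a 95% interval of -2.13 to 4.12 (limma adjusted p = 0.791). It ran from 0.12 without D3 to 2.36 without G1. The P vs. G value of eca-miR-224 was -1.09 (-4.21 to 2.04, adjusted p = 0.867), which ran from -2.45 without G1 to -0.26 without G2 or P1, and that of P vs. D was -0.10 (-3.22 to 3.03, adjusted p = 1). The bovine name, bta-miR-224, had 0, 1 and 24 reads in G, 0, 4 and 0 in D and 3, 1 and 2 in P, passing in G and P only. Most reads of both names were in G3, one of the deepest libraries, at 130 and 135 CPM.

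eca-miR-383 passed in all stages with 9 reads in total. It had 1, 0 and 3 reads in G, 1, 0 and 2 in D and 1, 0 and 1 in P, with no more than 46.0 CPM in any library, so its presence is recorded and a stage difference was not detectable at this depth. Its log2 fold changes lay between -0.35 and 0.0019 (limma adjusted p from 0.900 to 1).

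The miR-320 family was the second most abundant of the set. Its hairpin bypasses the Drosha step that most miRNA precursors need, and in mouse granulosa cells miR-320 represses SF-1 and lowers estradiol. bta-miR-320a had 4316, 3615 and 3059 CPM in G1, G2 and G3, 8132, 10882 and 4596 CPM in D1, D2 and D3, and 11866, 2821 and 3021 CPM in P1, P2 and P3. Every D library was above every G library in CPM, while P overlapped both because P1 had the highest value of the 9 and P2 and P3 the lowest. As shares of miRNA reads D and G overlapped, with 0.337% in D2 below 0.530% in G2 and 0.366% in G3. Means were 3663 ± 630 in G, 7870.2 ± 3151 in D and 5903 ± 5165 in P (mean ± SD, n = 3).

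The G vs. D log2 fold change of bta-miR-320a was -1.03 (standard error 0.65, 95% interval -2.43 to 0.38, limma adjusted p = 0.580), which did not pass. Scaled to the total of miRNA reads it was -0.54. In P vs. D it was -0.67 (-2.07 to 0.74, adjusted p = 0.628) and in P vs. G 0.36 (-1.04 to 1.76, adjusted p = 0.905). The last of these was -0.31 without P1. Within P, the red-cell sum was highest in P1, at 57460 CPM against 33470 in P2 and 40954 in P3. Libraries of G and D reached higher red-cell sums. The liver sum of P1 was 17173 CPM, also exceeded in other stages, and its leukocyte sum was the lowest of all, at 766 CPM. The part of these sources in the bta-miR-320a value of P1 was not tested.

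The other miR-320 entries carry human names. hsa-miR-320c had 355, 636 and 248 CPM in G, 843, 433 and 575 CPM in D and 1458, 77.3 and 176 CPM in P. P1 again stood above the rest, and the other P libraries had the lowest values of all 9. Its means of 413 ± 200.2, 617 ± 208 and 570.3 ± 769.9 CPM (mean ± SD, n = 3) gave a log2 fold change of -0.62 for G vs. D, -0.45 for P vs. G and -1.07 for P vs. D (limma adjusted p = 0.845, 0.929 and 0.628). With edgeR the P vs. G value was 0.55 and the P vs. D value -0.13, and with DESeq2 the latter was -0.05. The P vs. D value of hsa-miR-320c also ran from -2.25 without P1 to -0.21 without P2. hsa-miR-320d had 0 to 14 reads per library and 71.0 ± 67.3, 124 ± 131 and 89.6 ± 84.6 CPM, with limma adjusted p-values of 0.805, 0.965 and 0.845 in the same order. hsa-miR-320b, which passed in G and P only, had 25, 7 and 0 reads in G, 2, 0 and 0 in D and 3, 1 and 0 in P, so that G1 held 25 of its 38 reads.

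Entries other than miR-320a took 19.4, 21.7 and 9.67% of the miR-320 reads in G, 10.5, 4.19 and 15.6% in D and 12.4, 3.95 and 8.40% in P. The stage means were 16.9 ± 6.40, 10.1 ± 5.72 and 8.25 ± 4.24% (mean ± SD, n = 3), given as values since hsa-miR-320b passed in only some stages. The gap of 8.68 percentage points between G and P was 2.33 when the reads of a stage were pooled, which gives G3 the most weight. Names in this family differ by few bases, reads with up to 2 mismatches were counted, and reads may have been divided among them by the counting.

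**Figure D3:**
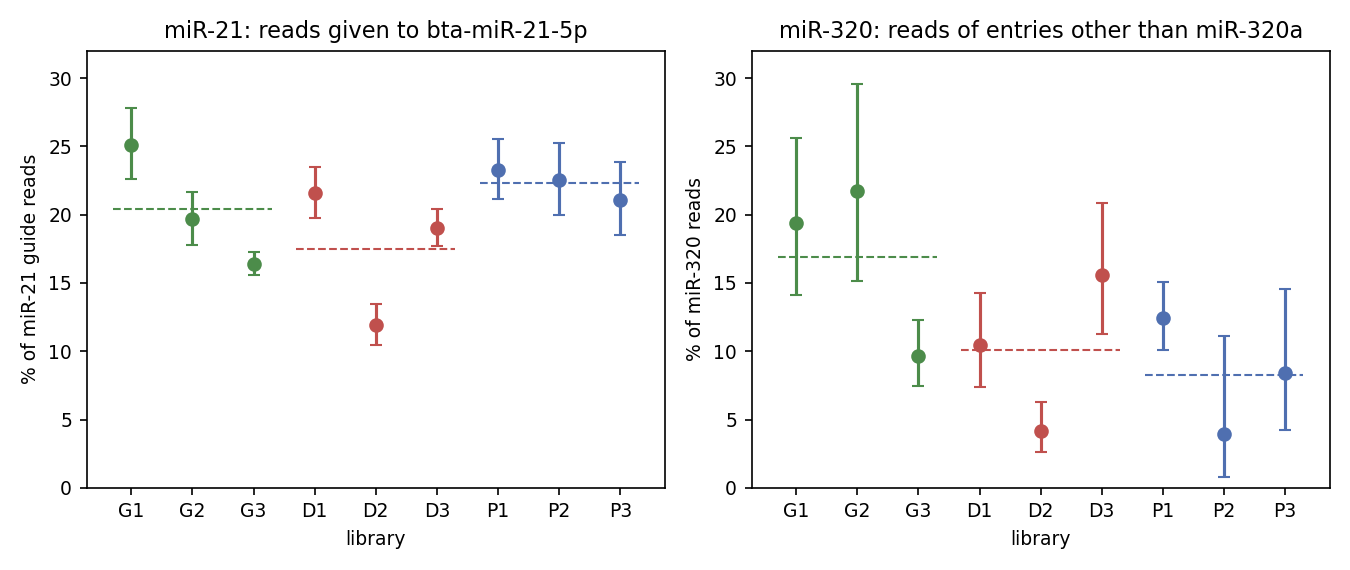
Share of miR-21 guide reads given to bta-miR-21-5p (left) and share of miR-320 reads given to entries other than miR-320a (right), in percent, for each library. Points are library values with exact 95% intervals and dashed lines are stage means. D2 has the lowest miR-21 share (11.9%), and G1 and G2 have the highest miR-320 shares (19.4 and 21.7%).

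None of the 10 entries that passed in all stages was called in any comparison. A call needed a limma adjusted p under 0.1 together with a 2-fold change, and 0 of these 10 passed in G vs. D, where 0.959% of the 417 miRNAs did. P vs. G (0.48% of all) also gave 0, as did P vs. D (2.64% of all). At an unadjusted p under 0.05 again 0 of the 10 passed in each comparison, against 9.35%, 7.43% and 14.6% of all miRNAs. With edgeR and with DESeq2 the counts were 0 at both thresholds, where the adjusted calls were 0.959%, 0.719% and 1.68% of all miRNAs with edgeR and 3.36%, 3.36% and 11% with DESeq2. Unadjusted, edgeR passed 15.3%, 11.5% and 16.5% of all miRNAs and DESeq2 10.8%, 8.15% and 14.9%.

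In CPM, replicates of the compared stages did not overlap for 1 of the 10 in G vs. D (bta-miR-320a), for 0 in P vs. G, and for 1 in P vs. D (eca-miR-21). Of all miRNAs, 14.6%, 9.59% and 22.3% did not overlap. As shares of miRNA reads neither of these 2 entries was separated. Over the 10 members that passed in all stages, G vs. D log2 fold changes ran from -1.03 to 1.77, those of P vs. G from -1.09 to 1.13 and those of P vs. D from -1.07 to 1.70. The medians were -0.39, -0.03 and -0.41, beside 0.43, -0.28 and 0.16 over the 417 miRNAs. The 2 comparisons that involve D share its libraries. The standard errors were between 0.45 and 1.67, smallest for eca-miR-21 and largest for bta-miR-202.

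**Figure D4:**
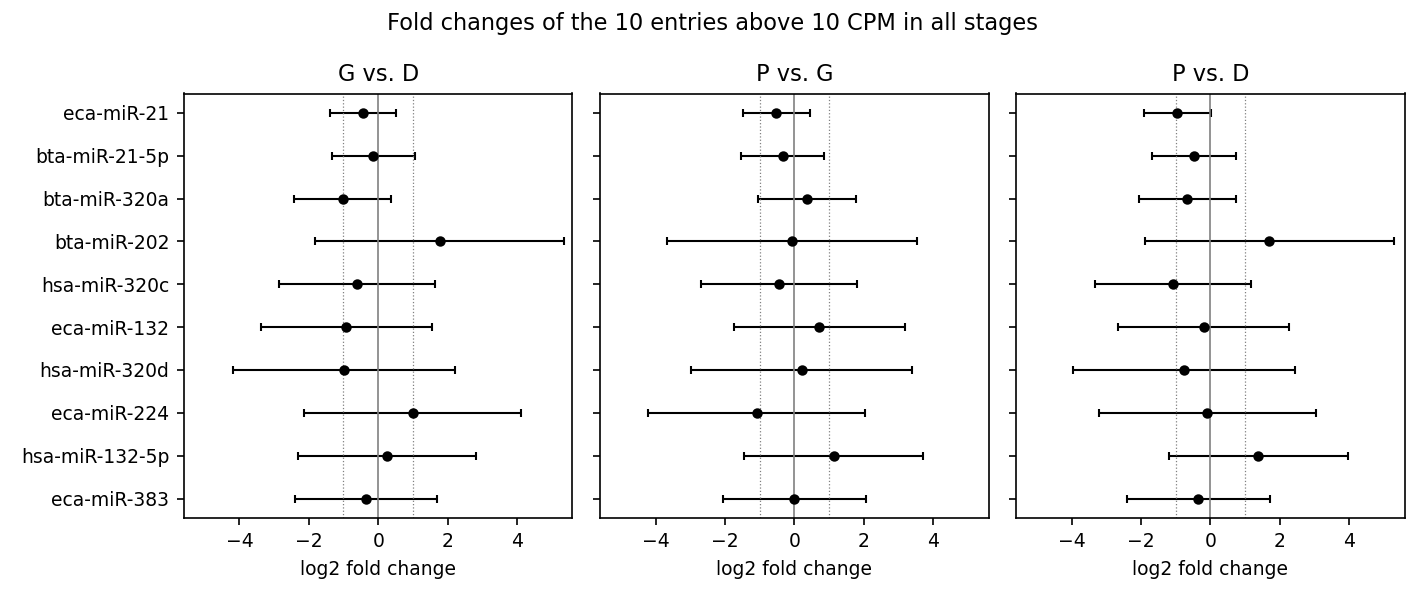
Log2 fold change on the log2(CPM + 10) scale of the 10 entries above 10 CPM in all stages, for each pair of stages, with 95% intervals from limma and dotted lines at a 2-fold change. Each interval includes 0, the narrowest being those of eca-miR-21 and the widest those of bta-miR-202.

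The rows closest to the threshold were few reads apart. bta-miR-212 was just inside, with 27.3 and 28.2 CPM in G1 and G3. Just outside were hsa-miR-320e, with 33.5 CPM in G2, 23.0 in D3 and 18.7 in P1 but never above 10 CPM in 2 libraries of a stage, and eca-miR-212, with 43.3 CPM in D2. Of the 10 names that did not pass, 7 had 0 reads in every library.

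The patterns most like those of the leading entries were sought among 219 other miRNAs with a mean of at least 100 CPM, by Pearson's r of log2(CPM + 10) over the 9 libraries, which share their pools and scaling. For eca-miR-21 they were eca-miR-31 (r = 0.91), known from keratinocytes, bta-miR-26b (0.88) and eca-miR-205 (0.87), known from squamous epithelium. For bta-miR-202 they were eca-miR-141 (0.72), eca-miR-423-3p (0.69) and bta-miR-22-3p (0.69). For bta-miR-320a they were eca-miR-27a (0.73), the red-cell miRNA eca-miR-451 (0.72) and eca-miR-22 (0.71), and for eca-miR-132 hsa-miR-92b-5p (0.79), eca-miR-197 (0.76) and eca-miR-150 (0.67). Among the miR-451 names, eca-miR-451 had 179 reads, and the main one, bta-miR-451 with 30419 reads, was not among these patterns.

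Another 12 miRNAs have been linked to gonadotropin receptors, aromatase or steroid output of ovarian cells. They include miR-378, which targets aromatase in pig granulosa cells, and miR-122, the liver miRNA of the sums above. Of their 31 names, 21 were tested, among them names that passed in only some stages. In G vs. D 1 of 21 was called, lower in G, beside 0.959% of all 417 miRNAs, and 0 of 21 in the other comparisons, beside 0.48% (P vs. G) and 2.64% (P vs. D). The 1 called was eca-miR-378, with 2 reads in G and 68 in D, and the call was lost when D1, D2 or D3 was left out. This miRNA did not reach the threshold in G and entered through the stages where it was high. Its values are therefore a description and nothing is read from the call. The median log2 fold change of the 21 was 0.63, 0.31 and 0.76 in the same order of comparisons, beside 0.43, -0.28 and 0.16 over all 417. These medians are a description too, since they include names that passed in only some stages and the list was chosen with earlier results known.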

How the data were processed

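Small RNA of follicular-fluid EVs was sequenced in 9 libraries. According to the methods, the authors trimmed reads and counted those matching equine, bovine or human miRBase entries in CLC Genomics Workbench, with up to 2 mismatches and equine entries first. The deposited signal values are TMM-adjusted CPM, so libraries do not sum to the same total. The processing notes also name DESeq2, without its use. Whole reads were recovered by dividing by the smallest value of a library, and 100% came out whole within 0.01 of a read. Members and lists were chosen with earlier results of these data known.

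Comparisons were fitted in R 4.3.3 by limma 3.58.1, with trended variance, on log2(CPM + 10) over 417 miRNAs, all 9 libraries in one fit, and Benjamini-Hochberg adjustment over all of them. Pseudocount 10 understates the change of scarce miRNAs. As alternatives the recovered reads were tested by the quasi-likelihood test of edgeR 4.0.16 and by DESeq2 1.42.0, in which missing adjusted p-values count as not called. The share of bta-miR-21-5p among miR-21 guide reads was compared by exact permutation (280 arrangements of the libraries), with the between-stage sum of squares, which has no direction, as statistic. Entries above 10 CPM in at least 2 libraries of all 3 stages were named with tests, the others by their values. The fits were also run on simulated data, in which the changes were larger than those fitted for the 10 entries compared between stages. That run therefore does not show whether changes of the size seen here would be called. Python 3.11.15 ran the other steps, with scipy 1.17.1, pandas 2.3.3, matplotlib 3.10.9 and numpy 2.4.6. No mature sequences were used here.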

Additional observations from a re-analysis of the deposited data

How the results depend on the processing

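Under all alternatives 0 members were called in any comparison: pseudocounts of 1 and 50, no filter or a mean of at least 100 CPM, an adjusted p under 0.05, total-sum scaling, only the 2 groups compared, no variance trend, edgeR, DESeq2, summed entries and each library left out in turn. With the replicate block the counts were 0 as well. Over all 417 miRNAs the calls in these settings were also few. They were 0 in P vs. G under total-sum scaling and in P vs. D without P1, and 46 in P vs. D with DESeq2. A count of 0 therefore does not set the members apart from other miRNAs. Whether the replicate numbers pair the libraries was not settled. Same-numbered libraries correlated between -0.06 and 0.14 in their deviations from the stage means, with 2 of 9 pairs over 0.1, and no differently numbered pairs were set beside them. The lowest adjusted p of a named entry was 0.207. With 1 library left out, the share of bta-miR-21-5p among miR-21 guide reads did not pass (exact permutation p from 0.196 to 0.689), while pooled reads give no test.

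Of 30 log2 fold changes, 10 kept their sign in all settings and 20 did not, with the cause not tested. Under total-sum scaling, which moved the median miRNA by 0.37, 0.27 and 0.55 (G vs. D, P vs. G and then P vs. D), values of the other sign were 0.054 (eca-miR-21) and 0.35 (bta-miR-21-5p) in G vs. D, 0.0049 (bta-miR-21-5p) and 0.27 (bta-miR-202) in P vs. G, and 0.35 (bta-miR-21-5p), 0.48 (eca-miR-132), 0.43 (eca-miR-224) and 0.16 (bta-miR-320a) in P vs. D. With edgeR and TMM, edgeR and RLE, and DESeq2, bta-miR-202 had -0.28, -0.25 and -0.25 in G vs. D, 0.20, 0.21 and 0.21 in P vs. G and -0.088, -0.035 and -0.038 in P vs. D, and hsa-miR-320c had 0.55, 0.52 and 0.53 in P vs. G. With summed entries eca-miR-224 had 0.027 for P vs. G, and 0.78 for P vs. D. With pseudocount 50 eca-miR-383 had -0.0011 in P vs. G.

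With 1 library left out, the range in G vs. D was -0.61 to 0.17 for bta-miR-21-5p, -0.44 to 1.06 for hsa-miR-132-5p, -0.70 to 3.56 for bta-miR-202, -1.08 to 0.20 for eca-miR-383 and -1.74 to 0.19 for hsa-miR-320d. In P vs. G it was -0.89 to 0.67 for bta-miR-202, -0.55 to 0.56 for eca-miR-383, -0.31 to 0.72 for bta-miR-320a, -1.63 to 0.41 for hsa-miR-320c and -0.96 to 1.48 for hsa-miR-320d. In P vs. D it was -0.83 to 0.27 for eca-miR-132, -0.77 to 3.49 for bta-miR-202, -0.97 to 0.82 for eca-miR-224, -1.08 to 0.21 for eca-miR-383 and -1.58 to 0.50 for hsa-miR-320d.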

Other observations

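The abundant members did not share one pattern over the 9 libraries, which share their pools and scaling. Pearson's r of log2(CPM + 10) was 0.74 between eca-miR-21 and bta-miR-21-5p and 0.75 between bta-miR-320a and hsa-miR-320c. Other entries of one family were less alike, with -0.0050 for bta-miR-320a and hsa-miR-320b and 0.22 for hsa-miR-320c and hsa-miR-320b, which had 38 reads in all. Between families it was 0.61 for bta-miR-21-5p and bta-miR-202, 0.0075 for eca-miR-21 and bta-miR-202, -0.25 for bta-miR-202 and bta-miR-320a and -0.02 for eca-miR-21 and bta-miR-320a. These values are descriptions over 9 libraries of 3 stages.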
